A study of Rattus norvegicus with 6 samples.

Results

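Antioxidant defence was examined through 6 rat genes: Nfe2l2 (ENSRNOG00000001548), Hmox1 (ENSRNOG00000014117), Nqo1 (ENSRNOG00000012772), Gclc (ENSRNOG00000006302), Sod2 (ENSRNOG00000019048) and Cat (ENSRNOG00000008364). They were chosen by function and looked up by Ensembl identifier, and all 6 were found among the 20159 genes of the deposited table. Polyadenylated RNA had been sequenced from 6 libraries of rat epidermal origin, 3 labelled as primary keratinocyte progenitors, the dividing cells of the epidermis, and 3 labelled as limbal niche, the tissue around the corneal stem cells. The design text describes keratinocyte progenitors kept on Matrigel in KSFM (keratinocyte serum-free medium with rhEGF and BPE), in LNCs-KS (KSFM with medium conditioned by limbal niche cells) or in LNC-SH (SHEM, supplemented hormonal epithelial medium, with the same conditioned medium). The labels do not say which of these a library came from, and they give epidermis as the tissue in both groups, so the second group is called limbal niche as labelled, without stating which cells it holds. Strain, age and sex are not in the labels.

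Nfe2l2 encodes NRF2, a transcription factor that KEAP1 keeps at a low level until oxidants or electrophiles release it. NRF2 then pairs with small MAF proteins on antioxidant response elements, short DNA sites near genes such as Nqo1, Hmox1 and Gclc. Its activity is set largely at the protein level, so the level of its RNA is no measure of it. Sod2 and Cat act on successive oxidants, but in different parts of the cell. Sod2, the manganese superoxide dismutase of mitochondria, turns superoxide into hydrogen peroxide. Cat, the catalase of peroxisomes, splits hydrogen peroxide into water and oxygen. Sod2 is also a known target of NF-kB. In the epidermis these genes are known for protection against ultraviolet light and chemicals.

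The starts of 3 of these genes are shown, chosen after their values were seen: Nqo1 varied most between libraries, and Sod2 and Cat were lowest in the same libraries. Each is the 250 bases before the transcription start on the gene's own strand, from RefSeq on build GRCr8, with entries for 5 of the 6 genes and none for Hmox1. Capitals mark matches, on either strand, to TGACNNNGC (the core of the antioxidant response element), to the CCAAT box, to the GC box GGGCGG and to the TATA motif TATAAA.
Nqo1, chr19:52220268-52220517, minus strand: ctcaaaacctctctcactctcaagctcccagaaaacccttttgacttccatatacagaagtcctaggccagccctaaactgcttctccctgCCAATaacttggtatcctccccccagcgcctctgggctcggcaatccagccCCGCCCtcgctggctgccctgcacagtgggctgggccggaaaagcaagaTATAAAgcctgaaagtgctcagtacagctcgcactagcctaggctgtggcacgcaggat
Sod2, chr1:50050169-50050418, minus strand: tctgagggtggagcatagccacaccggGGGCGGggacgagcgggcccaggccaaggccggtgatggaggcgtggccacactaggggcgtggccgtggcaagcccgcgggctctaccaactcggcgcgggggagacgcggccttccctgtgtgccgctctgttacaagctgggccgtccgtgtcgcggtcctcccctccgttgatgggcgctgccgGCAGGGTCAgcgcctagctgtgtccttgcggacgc
Cat, chr3:110329527-110329776, minus strand: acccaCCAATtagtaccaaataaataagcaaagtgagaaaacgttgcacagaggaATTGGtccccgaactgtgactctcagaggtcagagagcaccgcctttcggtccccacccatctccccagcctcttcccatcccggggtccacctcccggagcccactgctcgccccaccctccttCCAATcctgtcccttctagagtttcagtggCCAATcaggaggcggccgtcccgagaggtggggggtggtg

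The 3 windows held different matches, and no matches overlapped in them. Sod2 had 1 match to TGACNNNGC, on the strand opposite to the gene and beginning 35 bases before the start, and 1 GC box. Cat had 4 CCAAT matches and none of the other motifs. Nqo1 had a TATAAA match 59 bases before the start, 1 CCAAT and 1 GC box. TGACNNNGC was found in 1 of the 5 windows of these genes and in 10.1% of the 33469 rat promoter windows of the same length. CCAAT was found in 2 of the 5 and in 34.0% of all, GGGCGG in 4 of the 5 and in 30.5%, and TATAAA in 2 of the 5 and in 12.9%. The 5 windows held 56.4% to 74.8% G and C, against a median of 51.2% over all windows. The share of GGGCGG, made of G and C only, was not compared at equal G and C content. A match describes the letters only, and sites farther away were not searched. Whether these matches bear on the levels of the genes was not tested.

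The libraries had similar depth but did not group by label. Whole reads recovered from the FPKM values (reads or fragments scaled by gene length and by the library total) gave totals of 17678076 to 18237668 per library. Each value of these 6 genes rested on 465 to 22463 reads, a counting error of 0.667% to 4.64%, and the lowest and highest library of each gene differed by 1.40-fold or more. Reads are not independent molecules, and this error covers counting only. Over the 12085 tested genes, those averaging at least 1 FPKM, keratinocyte progenitor 2 and 3 were nearly alike (Pearson r = 0.995 across genes, which are not independent replicates), whereas keratinocyte progenitor 1 was closer to limbal niche 3 (r = 0.968) than to either of them (r = 0.927 and 0.923). Limbal niche 1 was closer to keratinocyte progenitor 2 and 3 (r = 0.925 and 0.931) than to limbal niche 2 and 3 (r = 0.887 and 0.883). The labels call the libraries biological replicates and do not say whether they came from separate animals or cultures, so p-values measure the spread between these libraries. The markers of epidermal, corneal and stromal cells were not examined, because no table used here pairs the other identifiers with gene symbols. For the same reason the other genes of the NRF2 pathway, such as Keap1, Gclm and Txnrd1, were not analysed here.

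None of the 6 genes passed the test of a difference between limbal niche and keratinocyte progenitors. On average 4 were lower in limbal niche (Nfe2l2, Hmox1, Nqo1 and Gclc) and 2 were higher (Sod2 and Cat). The members called were 0 of 6 (limma on log2(FPKM + 1), adjusted by Benjamini-Hochberg, p under 0.05, 3 libraries per group), where 0% of the 12085 tested genes were called. At an unadjusted p under 0.05 there were 0 of the 6 and 707 of all tested genes, and limma-voom on the recovered reads called 0 genes with 672 at an unadjusted p under 0.05. The median log2 difference, limbal niche minus keratinocyte progenitors, was -0.18 for the 6 genes and -0.06 for all tested genes, and the median size of the difference was 0.39 and 0.22. In bulk RNA, fewer cells of a type and less RNA per cell cannot be told apart. The 6 genes covered a wide range of stability between libraries, from Nfe2l2, steadier than most genes, to Nqo1, among the most variable.

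**Figure D1:**
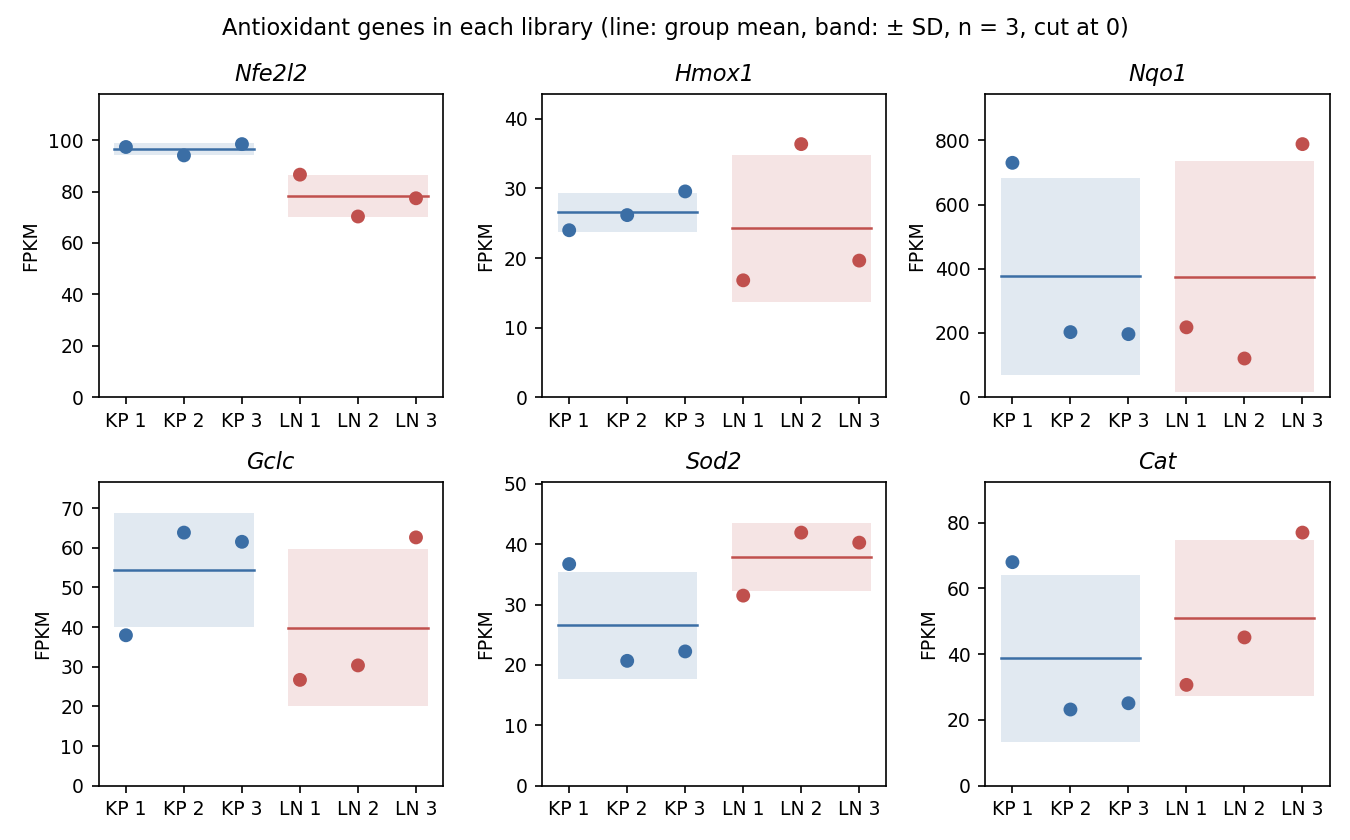
FPKM (vertical axes, from 0) of the 6 genes in keratinocyte progenitor (KP, blue) and limbal niche (LN, red) libraries 1 to 3, with 1 point per library, lines at the group means and bands of 1 SD (n = 3). Nfe2l2 alone has groups that do not overlap, and Nqo1 is high in 1 library of each group.

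The regulator, Nfe2l2, was the only member whose groups did not overlap. Keratinocyte progenitor 1, 2 and 3 had 97.3, 94.0 and 98.4 FPKM of it, and limbal niche 1, 2 and 3 had 86.6, 70.3 and 77.4 FPKM. The 3 keratinocyte progenitor libraries lay close together, and all 3 limbal niche libraries lay below them. The group means were 96.6 ± 2.28 FPKM and 78.1 ± 8.16 FPKM (SD, n = 3 each). The log2 difference was -0.31 with an SE of 0.15 and a 95% interval from -0.68 to 0.06 (limma adjusted p = 0.793). Groups that do not overlap, in either direction, were found for 1 of the 6 genes and for 11.9% of all tested genes, and 7.26% were lower in limbal niche in this way, so 1 of 6 is close to the background. Nfe2l2 also had no overlap under the 3 other scalings of the libraries. Under these, 6%, 6.02% and 8.37% of all tested genes were lower in limbal niche without overlap, so the background was similar each time. Its highest library was 1.40 times its lowest, and 17.7% of tested genes had a smaller SD of log2(FPKM + 1) over the 6 libraries. Nfe2l2 was thus the steadiest of the 6 genes, and its RNA ranked second among them in every library.

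Nqo1, a quinone reductase and a classic NRF2 target, was the most abundant and the most variable member. Keratinocyte progenitor 1, 2 and 3 had 729.8, 203 and 196 FPKM, and limbal niche 1, 2 and 3 had 218, 120.4 and 788 FPKM. Keratinocyte progenitor 1 and limbal niche 3 stood at 3.47 and 3.75 times the median over libraries, and the remaining 4 libraries, from both groups, lay between 120.4 and 218 FPKM. The highest library was 6.55 times the lowest, with 22463 against 3467 reads. Its SD of log2(FPKM + 1) was 1.11 over the 6 libraries, larger than that of 96.5% of tested genes and of 96.0% of the 6636 genes averaging at least 10 FPKM. The group means were almost equal, with 376 ± 306 FPKM for keratinocyte progenitors and 375 ± 361 FPKM for limbal niche (SD, n = 3 each). The log2 difference was -0.16 with an SE of 0.80 and a 95% interval from -2.07 to 1.74 (limma adjusted p = 0.964), so these libraries leave a difference of several fold in either direction within the interval. Without keratinocyte progenitor 1 the log2 difference turned to 0.46, without limbal niche 2 to 0.43 and without limbal niche 1 to 0.0047. Without limbal niche 3 it was -0.92.

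Gclc and Hmox1, which NRF2 is also known to induce, ordered the libraries differently from Nqo1. Gclc, the catalytic subunit of the rate-limiting enzyme of glutathione synthesis, measured 37.9, 63.8 and 61.5 FPKM in keratinocyte progenitor libraries 1, 2 and 3, and 26.7, 30.3 and 62.6 FPKM in limbal niche libraries 1, 2 and 3. Keratinocyte progenitor 2, 3 and limbal niche 3 formed a high set that differed little, and the other 3 libraries lay well below it. The group means were 54.4 ± 14.3 FPKM and 39.9 ± 19.8 FPKM (SD, n = 3 each). The log2 difference was -0.51 with an SE of 0.37 and a 95% interval from -1.39 to 0.38 (limma adjusted p = 0.797). It was -0.88 without limbal niche 3 (limma adjusted p = 0.551) and -0.28 without limbal niche 1. Keratinocyte progenitor 1, where Nqo1 was 3.47 times its median, had Gclc at 0.763 times its median, while limbal niche 3 was high for both genes.

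Hmox1, the heme oxygenase that breaks heme down to biliverdin, iron and carbon monoxide, had the lowest mean of the 6 genes. Keratinocyte progenitor 1, 2 and 3 had 24.0, 26.2 and 29.6 FPKM, and limbal niche 1, 2 and 3 had 16.8, 36.4 and 19.6 FPKM. The limbal niche libraries lay on both sides of the keratinocyte progenitors, with an SD of log2(FPKM + 1) of 0.57 against 0.15. The log2 difference was -0.20 with an SE of 0.30 and a 95% interval from -0.91 to 0.51 (limma adjusted p = 0.895), and it was 0.015 without limbal niche 1 and -0.52 without limbal niche 2. Limbal niche 2 combined the highest Hmox1 of all libraries with the lowest Nqo1. The ratio of Hmox1 to Nqo1 FPKM within a library was lowest in limbal niche 3, at 0.0249, and highest in limbal niche 2, at 0.302, a 12.1-fold span and the widest of the 15 ratios between members. A ratio within a library does not depend on how libraries are scaled.

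The enzymes that remove superoxide and hydrogen peroxide differed between libraries in a similar order. Sod2 measured 36.7, 20.7 and 22.2 FPKM in keratinocyte progenitor libraries 1, 2 and 3, and 31.5, 41.9 and 40.3 FPKM in limbal niche libraries 1, 2 and 3. Keratinocyte progenitor 2 and 3 were the lowest, and keratinocyte progenitor 1 lay among the limbal niche libraries, above limbal niche 1. The group means were 26.5 ± 8.84 FPKM and 37.9 ± 5.61 FPKM (SD, n = 3 each). The log2 difference was 0.53 with an SE of 0.26 and a 95% interval from -0.08 to 1.15 (limma adjusted p = 0.793).

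Cat measured 68.0, 23.2 and 25.1 FPKM in keratinocyte progenitor libraries 1, 2 and 3, and 30.7, 45.1 and 77.0 FPKM in limbal niche libraries 1, 2 and 3. Like Nqo1 it was highest in limbal niche 3 and keratinocyte progenitor 1, but unlike Nqo1 it was above its median in limbal niche 2. The group means were 38.7 ± 25.3 FPKM and 50.9 ± 23.7 FPKM (SD, n = 3 each). The log2 difference was 0.46 with an SE of 0.50 and a 95% interval from -0.72 to 1.65 (limma adjusted p = 0.847). Its size moved with single libraries: it was 0.95 without keratinocyte progenitor 1 and 0.77 without limbal niche 1, but 0.19, 0.25 and 0.12 without keratinocyte progenitor 2, keratinocyte progenitor 3 or limbal niche 3. With keratinocyte progenitor 2 and 3 averaged as 1 sample it was 0.22, and with library weights 1.17 (limma adjusted p = 0.0704). Its highest library was 3.32 times its lowest, and 88.2% of tested genes had a smaller SD of log2(FPKM + 1).

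Sod2 was the single member called when the libraries that did not group by label, keratinocyte progenitor 1 and limbal niche 1, were both left out. Its log2 difference was then 0.91 (limma adjusted p = 0.0218), against 0.53 with all 6 libraries and 0.84 with library weights (limma adjusted p = 0.0533). This left-out pair was chosen with the correlations known, and 14.9% of the tested genes were called with it, so 1 of 6 members is close to the background. In the same fit Cat had a log2 difference of 1.26 (limma adjusted p = 0.0531), and Nfe2l2 one of -0.38 (limma adjusted p = 0.0938). Nqo1 stood at 0.63 (limma adjusted p = 0.643), opposite in sign to its value with all libraries. The keratinocyte progenitor libraries in that fit, 2 and 3, were nearly alike but counted as separate. The SE of Sod2 was 0.12 there, against 0.26 with all 6 libraries. With keratinocyte progenitor 2 and 3 averaged as 1 sample and no library left out, Sod2 had a log2 difference of 0.41 (limma unadjusted p = 0.228). The part that the 2 left-out libraries have in each result was not tested beyond these values.

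**Figure D2:**
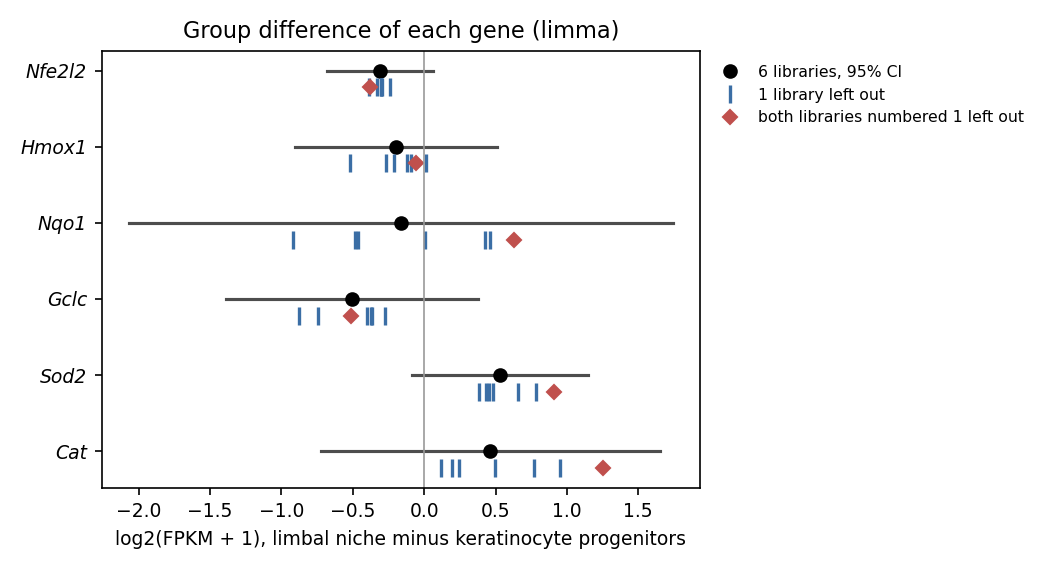
Difference of log2(FPKM + 1), limbal niche minus keratinocyte progenitors, for each gene: black points with 95% confidence intervals from limma on 6 libraries, blue ticks with 1 library left out, red diamonds with both libraries numbered 1 left out. All 6 intervals include 0, and the ticks of Nqo1 lie on both sides of 0.

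Sod2 and Cat were the members whose order of libraries was most alike. For both genes keratinocyte progenitor 2 was lowest, then keratinocyte progenitor 3, then limbal niche 1. Theirs was the only 1 of the 15 pairs that shared its 3 lowest libraries. Hmox1 and Nqo1, the opposite case, shared 0 of their 3 lowest libraries. How often a pair of genes in the whole table shares all 3 or 0 was not counted. By Pearson r over the 6 libraries, 7.81% of the other tested genes followed Sod2 at least as closely as Cat did. By the same measure 5.23% followed Nqo1 at least as closely as Cat did, so Sod2 and Cat were not foremost by it. Sod2 and Cat were picked from the 15 pairs in these same libraries, which the share does not allow for. Above their 3 lowest libraries the orders of Sod2 and Cat differed, with limbal niche 2 highest for Sod2 and limbal niche 3 for Cat. The ratio of Sod2 to Cat FPKM lay between 0.523 and 1.03, a 1.96-fold span and the narrowest of the 15 ratios. Keratinocyte progenitor 1 and limbal niche 3 had the lowest ratios, 0.54 and 0.523, and the other 4 libraries lay between 0.887 and 1.03. For 3 genes (Nqo1, Gclc and Sod2) the 6 values fell into separate clusters, with a gap between neighbouring values wider than the range on either side of it. For the 12 pairs that involve them no value of a correlation over the pooled libraries is therefore given as a result. The shares of 7.81% and 5.23% rest on such pooled correlations and are background only. For Sod2 and Cat the exact permutation p adjusted over the 15 pairs was 0.521 by Pearson r and 0.438 by Spearman rho. The keratinocyte progenitor 2 and 3 libraries are also close to copies of each other, which lowers the number of separate observations behind any shared order.

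The 3 pairs without such clusters did not vary together detectably. Nfe2l2 and Hmox1 had a Pearson r of -0.16 (exact permutation p = 0.75, adjusted over 15 pairs 0.858) and a Spearman rho of 0.029 (exact permutation p = 1.0, adjusted 1.0). For this pair r was 0.92 (exact permutation p = 0.125) without limbal niche 2 and 3, the libraries farthest from the Nfe2l2 median. Nfe2l2 and Cat had an r of -0.40 (exact permutation p = 0.408, adjusted 0.847) and a rho of -0.43 (exact permutation p = 0.419, adjusted 1.0), and r was 0.21 (exact permutation p = 0.75) without the same libraries. Hmox1 and Cat had an r of -0.19 (exact permutation p = 0.699, adjusted 0.858) and a rho of -0.31 (exact permutation p = 0.564, adjusted 1.0), and r was -0.85 (exact permutation p = 0.125) without limbal niche 1 and 2. Each of these values moved strongly with the libraries left out. The libraries that remained always included keratinocyte progenitor 2 and 3, which were nearly alike.

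**Figure D3:**
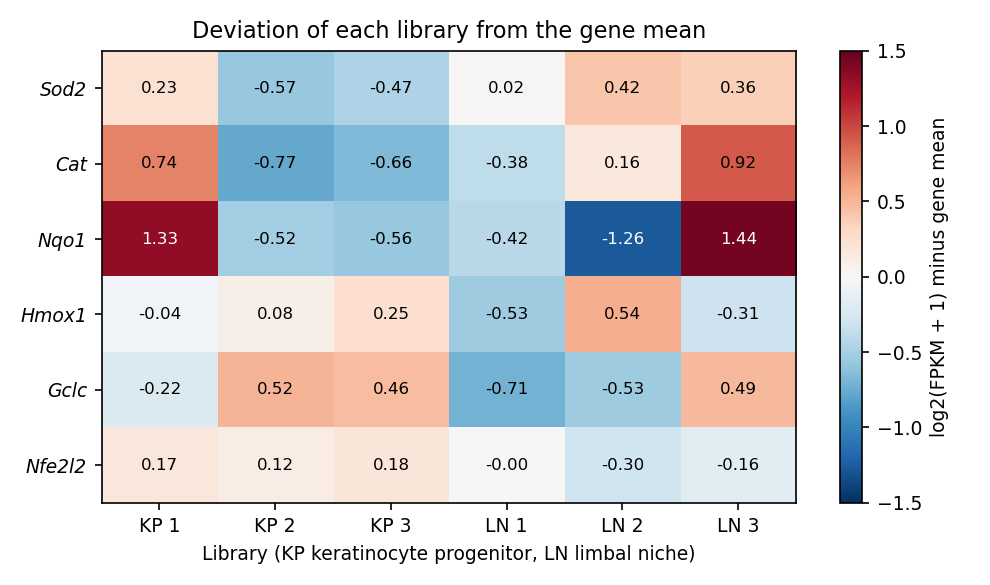
Deviation of log2(FPKM + 1) in each library (columns; KP keratinocyte progenitor, LN limbal niche) from the gene's mean over 6 libraries (rows), red above and blue below. Sod2 and Cat share their lowest libraries, KP 2 and KP 3, while Nqo1 runs from -1.26 in LN 2 to 1.44 in LN 3.

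Ratios between members did not separate the groups. Of the 15 ratios, 0 had groups without overlap, and with 3 libraries against 3 the exact permutation test cannot give a two-sided p below 0.1. Among single tested genes the share without overlap was 11.9%. The 15 ratios share members, and no test sets 0 of 15 apart from that share. The largest difference was that of Gclc to Sod2, at 1.03, 3.09 and 2.77 in keratinocyte progenitor 1, 2 and 3 and 0.848, 0.724 and 1.56 in limbal niche 1, 2 and 3. Its log2 difference was -1.07 (exact permutation p = 0.2, adjusted over 15 ratios 0.857). Keratinocyte progenitor 2 and 3 held the highest ratios, and keratinocyte progenitor 1 lay among the limbal niche libraries.

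In level per length, the order was Nqo1, Nfe2l2, Gclc, Cat, Sod2 and Hmox1 by mean log2(FPKM + 1). Nqo1 was above Nfe2l2 in 6 of 6 libraries, by 3.35-fold as a geometric mean, and Nfe2l2 was above Gclc in 6 of 6, by 1.96-fold. Both steps had an exact sign-flip permutation p of 0.03125, the smallest that 6 libraries can give, and 0.0781 after adjustment over the 5 steps. The order was read from the same libraries that were tested, so these p-values do not test a ranking set in advance. Keratinocyte progenitor 2 and 3, which were nearly alike, counted as separate libraries. The lower 4 genes were not in a fixed order: Gclc was above Cat in 2 of 6 libraries (exact permutation p = 0.75, adjusted 0.75), Cat above Sod2 in 5 of 6 (exact permutation p = 0.0625, adjusted 0.104) and Sod2 above Hmox1 in 4 of 6 (exact permutation p = 0.25, adjusted 0.312). Nqo1 lay above at least 95.4% of the genes detected in each library, and Hmox1 above 72.8% to 85.4% of them.

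Distances between libraries over these genes were also set beside those over all genes. Keratinocyte progenitor 2 and 3 differed by a mean of 0.090 in log2(FPKM + 1) over the 6 genes and 0.12 over all tested genes, and no member was 2-fold apart. Keratinocyte progenitor 1 and limbal niche 3, from different groups, were the next closest, at 0.29 over the 6 genes and 0.33 over all genes. Limbal niche 2 and 3 differed most between the measures: over all tested genes they were among the more alike pairs, at 0.40, yet over the 6 genes they were the farthest apart of the 15 pairs, at 0.92. Nqo1 differed by 2.70 between them, and without it the mean over the other 5 genes was 0.57. These values are descriptions of 6 genes and were not tested.

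**Figure D4:**
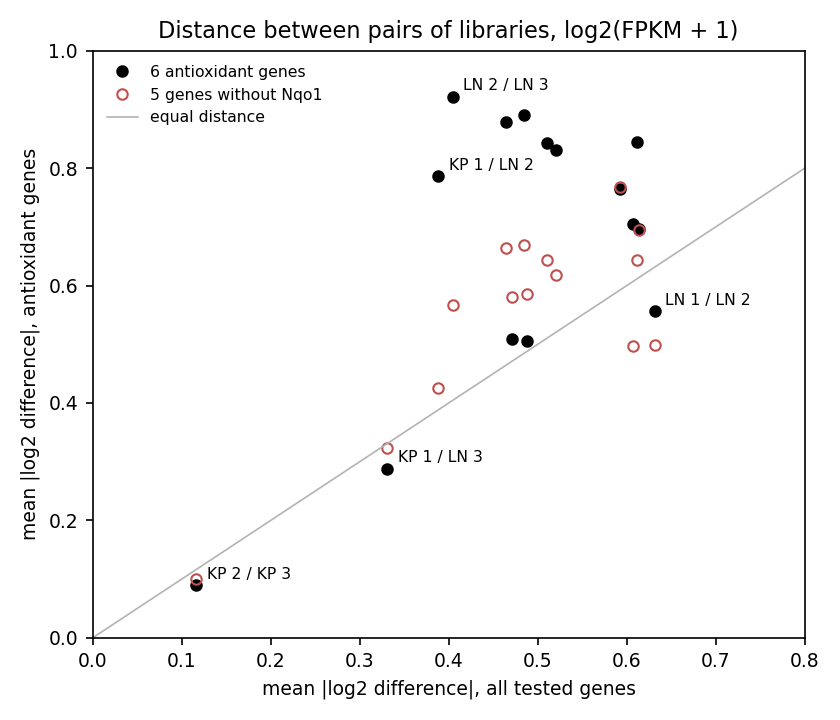
Mean size of the difference in log2(FPKM + 1) between the 15 pairs of libraries, over all tested genes (horizontal axis) and over the antioxidant genes (vertical axis; filled points 6 genes, open points 5 genes without Nqo1), with a line of equal distance. KP 2 and KP 3 lie at 0.12 and 0.090, and LN 2 and LN 3 at 0.40 and 0.92.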

How the data were processed

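RNA sequencing covered 6 rat libraries, 3 per group, with groups and replicate numbers from the sample titles and columns matched through the descriptions. Per the labels' protocols, TRIzol was used for extraction and oligo(dT) beads for selecting polyadenylated RNA. Per the submitters' processing notes, FastQC, Trim Galore and DESeq2 were used; their versions and the aligner, counter, strand use, build and annotation were not given in the sources used. The authors deposited FPKM values for 20159 Ensembl identifiers. FPKM corrects for length and total, not for composition.

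Whole reads were recovered for all 20159 genes by finding library totals and gene lengths that make each value whole (tolerance 1e-09 absolute or 1e-12 relative). Groups were compared with limma 3.58.1 (R 4.3.3) fitted to log2(FPKM + 1) with a variance trend, group as the only term and Benjamini-Hochberg adjustment over the 12085 genes averaging at least 1 FPKM; a log2 difference on this scale slightly understates changes of low values. The scripts were tested on simulated data. Exact permutation tests were two-sided, run in Python 3.11.15. Ratios between members used FPKM without the added 1. All 6 members are named by rule; their symbols come with that rule, since the reference table pairs no identifier. The members and tests were chosen with earlier results of these data known, and the rule for separate clusters after the values were seen.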

Additional observations from a re-analysis of the deposited data

How the results depend on the processing

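The count of called genes was 0 with all 6 libraries under other pseudocounts, scalings and variance settings, a filter at 5 FPKM, limma-voom and library weights. The weighted fit was far from the main one all the same, with 3693 genes at an unadjusted p under 0.05 against 707 and a lowest adjusted p of 0.0504 against 0.786. It was 11 without a filter, where more genes were tested, 0 to 2 with 1 library left out (2 without limbal niche 3), and 1804 with both libraries numbered 1 left out. Of 120 alternative values of the 6 genes, 113 had the main sign and the main side of the threshold, 6 changed sign and 1 passed the threshold. Other filters, other variance settings and the replicate block leave a log2 difference as it is. Its sign there is the main one by construction, so the 113 overstate how stable the signs were. The log2 difference of Nqo1 turned to 0.75 with library weights and to 0.63 with both libraries numbered 1 left out. With 1 library left out it ran from -0.92 to 0.46. In the same way that of Hmox1 ran from -0.52 to 0.015, that of Gclc from -0.88 to -0.28 and that of Cat from 0.12 to 0.95. That of Nfe2l2 ran from -0.38 to -0.24 and that of Sod2 from 0.38 to 0.78. Sod2 passed the threshold at 0.91 with both libraries numbered 1 left out; the cause was not tested. Pearson r reversed to 0.92 for Nfe2l2 and Hmox1 (exact permutation p = 0.125) and to 0.21 for Nfe2l2 and Cat (exact permutation p = 0.75) without the 2 libraries farthest from the median. Same-numbered libraries deviated in opposite directions (correlations of -0.48, -0.35 and -0.25). Deviations were taken from each group's mean, and the libraries did not group by label. These correlations therefore cannot decide whether the numbers mark pairs. With the replicate block 0 genes were called and 328 were at an unadjusted p under 0.05. With 1 library per group in each block, the group differences themselves cannot move. What limits the width of the intervals was not tested.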
